A study of Mus musculus with 8 samples.

Results

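Hyaluronan is a long, unbranched sugar polymer of the matrix around cells. It is made at the plasma membrane by the synthases Has1, Has2 and Has3 from UDP-glucuronic acid and UDP-N-acetylglucosamine. It is broken down by hyaluronidases such as Hyal1 and Hyal2 and by the hyaluronan-depolymerising protein Cemip. Cells bind it through the receptor Cd44, and the large proteoglycan versican, encoded by Vcan, binds it in the matrix. In mammary tumours a hyaluronan- and versican-rich matrix is known to surround cancer cells and fibroblasts. These 8 genes were taken by name, with symbols mapped through GENCODE M21 to the Ensembl IDs of the deposited counts, and make up 8 of the 50143 gene IDs in the file. Of the 8, 7 had enough reads to be tested and Has1 did not.

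RNA was sequenced from 4 tumours of obese mice and 4 tumours of lean mice. All 8 tumours grew from Py230, a cell line from a mammary tumour of a mouse carrying the polyoma middle T oncogene, placed in mammary gland 4 of female C57BL/6 mice. The hosts of both groups had been ovariectomized when 6 weeks old. From 2 weeks after surgery the obese group ate a high fat diet (60% of calories from fat, 5.1 kcal/g) and the lean group a regular diet (10%, 3.6 kcal/g). The cells were injected after 6 weeks on these diets, by which time the high fat diet had raised body weight by an average of 35%. Tumours were collected on day 56. All tumours come from a single cell line and hold the host's stromal and immune cells as well as tumour cells. The labels do not say whether each tumour came from its own mouse, so p-values measure the spread between these tumours.

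Depth ran from 25.7 to 66.7 M counts per tumour. Levels are given as CPM, counts relative to a common library size, scaled with TMM factors, and a log2 change, given with its SE, is the obese level over the lean level. Differences were tested by edgeR's quasi-likelihood test, with Benjamini-Hochberg adjustment over the 14887 genes that passed a filter on low counts, and a gene was called at an adjusted p under 0.05. This contrast was broad, since 59.2% of tested genes were called, 30.9% higher and 28.4% lower in obese tumours. With upper quartile scaling, which moved the median log2 change of all genes by −0.21, 3612 genes were called higher and 5145 lower, against 4598 and 4221 with TMM. Scaling by library size moved that median by −0.19. Obese replicate 3 stood apart, with a first principal component score of 12.9, against −136 to −96.5 in the rest of its group and 70.2 to 93.7 in lean tumours.

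In obese tumours, RNA of both hyaluronan-binding genes, Vcan and Cd44, was higher, while RNA of the synthase gene Has2 and of the breakdown gene Cemip was lower. Vcan was 13.0-fold and Cd44 3.86-fold higher, and Has2 was 4.75-fold and Cemip 6.73-fold lower. The other tested genes, Has3, Hyal1 and Hyal2, were not called. Called genes were thus 4 of the 7 tested, or 57.1%, beside 59.2% of all tested genes, and the 4 obese values lay apart from the 4 lean values for the same 4 genes, beside 57.0% of all tested genes (28.9% higher and 28.1% lower). These shares are near the background. The median log2 change of the 7 genes was 0.16, against −0.04 for all tested genes.

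**Figure D1:**
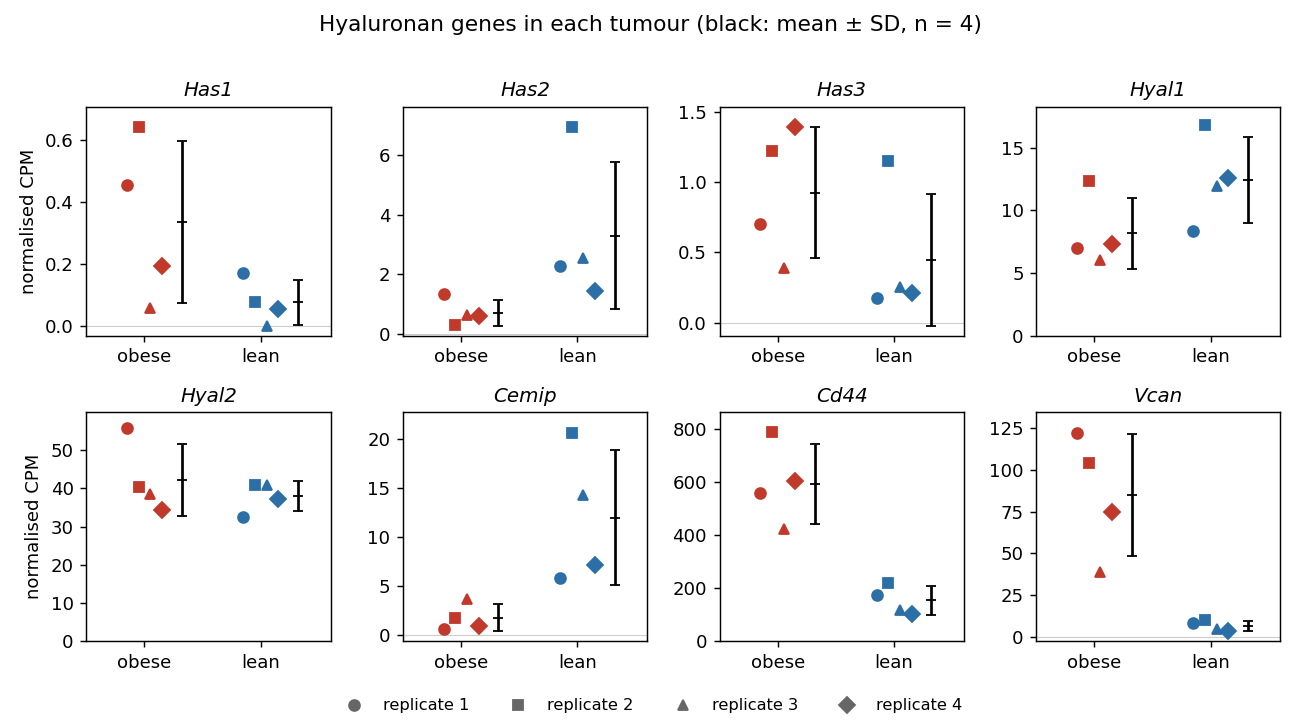
Normalised CPM of each of the 8 hyaluronan genes in each tumour (y axis, linear, a scale of its own in each panel), obese left of lean, with replicates as symbols and the mean ± SD (n = 4) as black bars. Vcan and Cd44 are higher in every obese tumour than in any lean tumour, Has2 and Cemip are lower in every obese tumour, and the groups overlap for Has1, Has3, Hyal1 and Hyal2.

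Vcan (ENSMUSG00000021614, GRCm38 chromosome 13, 89655312 to 89742509, minus strand) encodes versican, a chondroitin sulphate proteoglycan whose amino-terminal link domain binds hyaluronan. It stood at 122, 104, 38.9 and 74.7 CPM in obese replicates 1 to 4, against 8.15, 9.91, 4.76 and 3.34 CPM in lean replicates 1 to 4. Obese replicate 3 was the lowest of its group and still lay well above the highest lean tumour, lean replicate 2. The means were 84.9 ± 36.3 CPM in obese and 6.54 ± 3.02 CPM in lean tumours (SD, n = 4 each), a log2 change of 3.70 ± 0.48 (edgeR adjusted p = 0.000788). The counts are per gene and do not separate versican's splice forms, which differ in their attachment sites for chondroitin sulphate.

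Cd44 (ENSMUSG00000005087, chromosome 2, 102811141 to 102901665, minus strand) encodes the main cell surface receptor of hyaluronan. It stood at 560.5, 789, 423 and 606 CPM in obese replicates 1 to 4, against 174, 219.6, 119 and 104 CPM in lean replicates 1 to 4. The order of the obese tumours was not that of Vcan, although obese replicate 3 was again the lowest and lean replicate 2 again the highest of its group. The means were 595 ± 151 CPM in obese and 154 ± 53.1 CPM in lean tumours (SD, n = 4 each), a log2 change of 1.95 ± 0.29 (edgeR adjusted p = 0.00132). Cd44 is made by tumour cells, fibroblasts and leukocytes alike, and in a bulk tumour more cells of a type cannot be told apart from more RNA per cell. The gene counts do not show which variant exons were included.

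**Figure D2:**
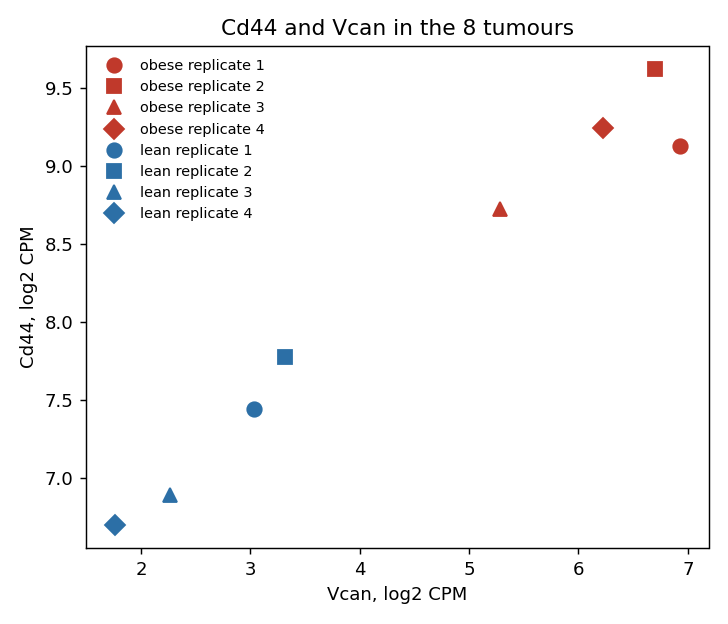
Cd44 against Vcan in the 8 tumours, both axes in log2 CPM (prior count 2), obese tumours in red and lean tumours in blue with replicates as symbols. The groups form separate clouds, and within each cloud tumours with more Vcan tended to have more Cd44, with lean replicates 4 and 3 at the low end of the lean tumours and obese replicate 3 at the low end of the obese ones.

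After subtraction of each group's mean, the log2 CPM of Cd44 and Vcan had a Pearson r of 0.87 over the 8 tumours, the highest of the 21 pairs of tested genes. The 2 genes share libraries and scaling factors, and the value is a description. The next pairs were Has3 with Hyal1 (0.75) and Has3 with Cd44 (0.74), where Has3 rests on few reads. Has2 and Cemip, which were both lower in obese tumours, had a value of 0.12.

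Has2 (ENSMUSG00000022367, chromosome 15, 56665627 to 56694539, minus strand) encodes the synthase that mouse embryos cannot do without. It stood at 1.32, 0.280, 0.638 and 0.576 CPM in obese replicates 1 to 4, against 2.28, 6.94, 2.54 and 1.44 CPM in lean replicates 1 to 4. The gap between the groups was narrow, with 1.32 CPM in obese replicate 1 beside 1.44 CPM in lean replicate 4, and lean replicate 2 held the highest value. The log2 change was −2.25 ± 0.65 (edgeR adjusted p = 0.0188), from 17 to 33 counts per obese tumour against 81 to 362 counts per lean tumour. Leaving out obese replicate 4 ended the call (edgeR adjusted p = 0.0524), and the adjusted p ran from 0.00208 to 0.0532 over all alternatives. Without lean replicate 2 the log2 change was −1.59 and the call held (edgeR adjusted p = 0.0402). Has2os, a noncoding gene on the opposite strand that shares 182 exon bases with Has2, had 0 to 8 counts per tumour.

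The other synthase genes gave positive log2 changes that were not called. Has3 (ENSMUSG00000031910, chromosome 8, 106870242 to 106884566, plus strand) stood at 0.702, 1.22, 0.387 and 1.39 CPM in obese replicates 1 to 4, against 0.172, 1.15, 0.254 and 0.213 CPM in lean replicates 1 to 4. Lean replicate 2 lay among the obese values and the other 3 lean tumours lay below all 4 of them. The log2 change was 1.04 ± 0.72 and was not called (edgeR adjusted p = 0.231). Without lean replicate 2 it was 2.10 ± 0.55 (edgeR adjusted p = 0.0155, with 0.000917 to 0.417 over all alternatives). Has3 shares 352 exon bases with Chtf8 on the opposite strand, and the strand setting of the counting is not given in the sources used here. Has1 (ENSMUSG00000003665, chromosome 17, 17843323 to 17855205, minus strand) had 11, 39, 3 and 8 counts in obese replicates 1 to 4, against 7, 4, 0 and 3 counts in lean replicates 1 to 4, too few for the filter. The count of 0 in lean replicate 3 allows up to 0.0586 CPM, for counting error only. Tested with no filter, Has1 had a log2 change of 2.17 ± 1.01 (edgeR adjusted p = 0.107).

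Per kb of exon, Has2 made up most of the synthase RNA in lean tumours and a varying part in obese tumours. Its share of the summed CPM per kb of the 3 synthases was 59.7, 16.6, 67.2 and 34.3% in obese replicates 1 to 4, against 89.2, 89.3, 93.8 and 88.3% in lean replicates 1 to 4. Has3 held 21.1 to 55.0% in obese and 4.46 to 9.82% in lean tumours, and Has1 5.73 to 35.6% in obese and 0 to 6.30% in lean tumours. For Has2 and Has3 no obese share overlapped a lean one. The summed level of the 3 synthases was low in every tumour, 0.224 to 0.522 CPM per kb in obese and 0.385 to 1.83 CPM per kb in lean tumours, and these ranges overlapped. The obese shares rest on 56 to 130 synthase counts per tumour. No test was made of these shares.

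**Figure D3:**
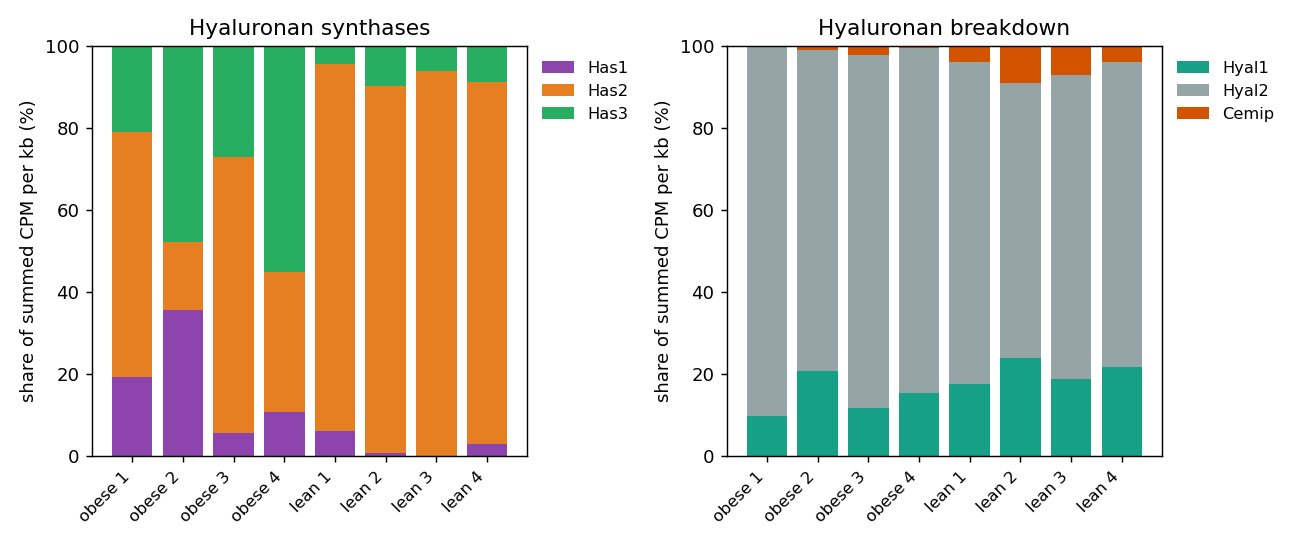
Share of each gene (%) in the summed CPM per kb of the hyaluronan synthases (left panel) and of the breakdown genes Hyal1, Hyal2 and Cemip (right panel), 1 bar per tumour with obese tumours left of lean ones. Has2 fills 88.3 to 93.8% of each lean bar and 16.6 to 67.2% of each obese bar, and Hyal2 is the widest band of every bar in the right panel.

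Cemip (ENSMUSG00000052353, chromosome 7, 83932857 to 84086502, minus strand) encodes a secreted and cell-associated protein that cuts hyaluronan into fragments in fibroblasts. It stood at 0.661, 1.78, 3.71 and 0.936 CPM in obese replicates 1 to 4, against 5.87, 20.7, 14.4 and 7.12 CPM in lean replicates 1 to 4. Obese replicate 3 was the highest of its group and still lay below the lowest lean tumour, lean replicate 1. The log2 change was −2.75 ± 0.66 (edgeR adjusted p = 0.00902), and −3.38 without obese replicate 3. The call held under all 18 alternatives (adjusted p up to 0.0276).

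Hyal2 (ENSMUSG00000010047, chromosome 9, 107567945 to 107572779, plus strand) encodes a hyaluronidase anchored at the cell surface. It stood at 55.9, 40.3, 38.5 and 34.5 CPM in obese replicates 1 to 4, against 32.6, 41.0, 41.0 and 37.2 CPM in lean replicates 1 to 4. The groups overlapped, with a log2 change of 0.16 ± 0.17 (edgeR adjusted p = 0.451) that turned to −0.055 with upper quartile scaling and −0.032 with library size only. Its neighbour Hyal1 (ENSMUSG00000010051, chromosome 9, 107576927 to 107581710, plus strand) encodes the lysosomal hyaluronidase. It stood at 7.02, 12.3, 5.99 and 7.27 CPM in obese replicates 1 to 4, against 8.35, 16.8, 11.9 and 12.6 CPM in lean replicates 1 to 4. Obese replicate 2 lay within the lean range and the other obese tumours lay below it, and the log2 change of −0.61 ± 0.31 was not called (edgeR adjusted p = 0.1198). It was called without obese replicate 2 (−0.87, edgeR adjusted p = 0.0377) and with upper quartile scaling (−0.82, edgeR adjusted p = 0.0422), within 0.0313 to 0.405 over all alternatives. Of the 3777 exon bases of Hyal1, 1920 are shared with Naa80 on the same strand, so its level is uncertain.

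Among the 3 breakdown genes, per kb of exon, Hyal2 held 89.9, 78.2, 86.1 and 83.9% of the summed level in obese replicates 1 to 4, against 78.6, 67.0, 74.2 and 74.3% in lean replicates 1 to 4. These ranges just overlapped. Cemip held 0.286 to 2.23% in obese and 3.81 to 9.09% in lean tumours, without overlap. The summed level was 12.5 to 18.9 CPM per kb in obese and 12.6 to 18.6 CPM per kb in lean tumours.

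Over all 8 genes, the order of levels per kb of exon differed between the groups. Vcan held place 3 in obese and 6 in lean tumours, and Cemip place 7 in obese and 4 in lean tumours. In obese tumours Cd44 came first with 87.8 ± 22.2 CPM per kb, followed by Hyal2 (12.8 ± 2.85), Vcan (5.87 ± 2.51) and Hyal1 (2.16 ± 0.747). Below them came Has2, Has3, Cemip and Has1, between 0.166 and 0.0745 CPM per kb, whose neighbours in the order overlapped, as did Vcan and Hyal1. In lean tumours Cd44 came first with 22.7 ± 7.84 CPM per kb, followed by Hyal2 (11.5 ± 1.21), Hyal1 (3.29 ± 0.918), Cemip (0.981 ± 0.562), Has2 (0.779 ± 0.583) and Vcan (0.452 ± 0.209). There the ranges of Cemip, Has2 and Vcan overlapped from each to the next, and Has3 and Has1 closed the order. Among all tested genes, Cd44 stood above 96.3% in obese and 83.1% in lean tumours, and Vcan above 50.6% in obese and 12.6% in lean tumours.

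The promoters of the called genes are shown because the result is a difference in their RNA. Of the 8 genes, 6 were matched by symbol in the RefSeq table (GRCm38.p6), and the 3 called ones among them are printed as the 250 bases before the annotated start, 5′ to 3′ on the gene's strand. They lie at chr13:89742513-89742762 (Vcan, minus strand), chr2:102901666-102901915 (Cd44, minus strand) and chr7:84086506-84086755 (Cemip, minus strand). Capitals mark matches on either strand. The GC box was searched as GGGCGG. The letters TATAAA stood for the TATA box.
Vcan: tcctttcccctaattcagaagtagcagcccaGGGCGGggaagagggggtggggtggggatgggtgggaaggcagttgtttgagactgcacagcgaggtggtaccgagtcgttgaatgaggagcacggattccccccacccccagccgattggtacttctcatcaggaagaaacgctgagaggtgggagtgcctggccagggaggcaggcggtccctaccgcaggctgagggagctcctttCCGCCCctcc
Cd44: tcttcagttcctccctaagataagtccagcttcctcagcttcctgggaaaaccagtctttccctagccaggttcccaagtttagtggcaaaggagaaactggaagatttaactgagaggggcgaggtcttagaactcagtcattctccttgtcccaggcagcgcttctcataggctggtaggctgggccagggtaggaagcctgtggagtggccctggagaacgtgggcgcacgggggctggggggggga
Cemip: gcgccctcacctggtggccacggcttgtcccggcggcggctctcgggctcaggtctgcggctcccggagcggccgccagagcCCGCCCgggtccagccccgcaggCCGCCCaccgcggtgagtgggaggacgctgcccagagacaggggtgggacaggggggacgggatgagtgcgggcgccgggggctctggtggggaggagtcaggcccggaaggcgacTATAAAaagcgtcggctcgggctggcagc
The Vcan window held 2 GC boxes, starting 219 and 10 bases before the start. The Cemip window held 2 GC boxes and a TATA box that starts 29 bases before the start, and the Cd44 window held no match. A GC box occurs in 32.9% and a TATA box in 13.0% of the 27025 RefSeq promoter windows of this length. TGANTCA (AP-1, in 6.87% of windows) and CTTTGAT (TCF/LEF, in 3.23%), searched on both strands, matched in none of the 3. The G and C content was 62.4% for Vcan, 56.4% for Cd44 and 75.2% for Cemip, against a median of 52.0% over all windows. A match is a description of letters and not a bound site.

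A wider list of 56 hyaluronan pathway genes, grouped by role, had 45 tested genes, of which 16 were called higher and 9 lower, or 55.6%, beside 59.2% of all tested genes. Their median log2 change was 0.11. Stab2, Hapln3 and Itih4 reached the count filter in 0 obese tumours, Hapln4 and Ncan in 1 obese tumour, and Adamts20 in 1 lean tumour. The filter favoured the direction of each, so their calls are no support for it. The counts of called genes given here include them.

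**Figure D4:**
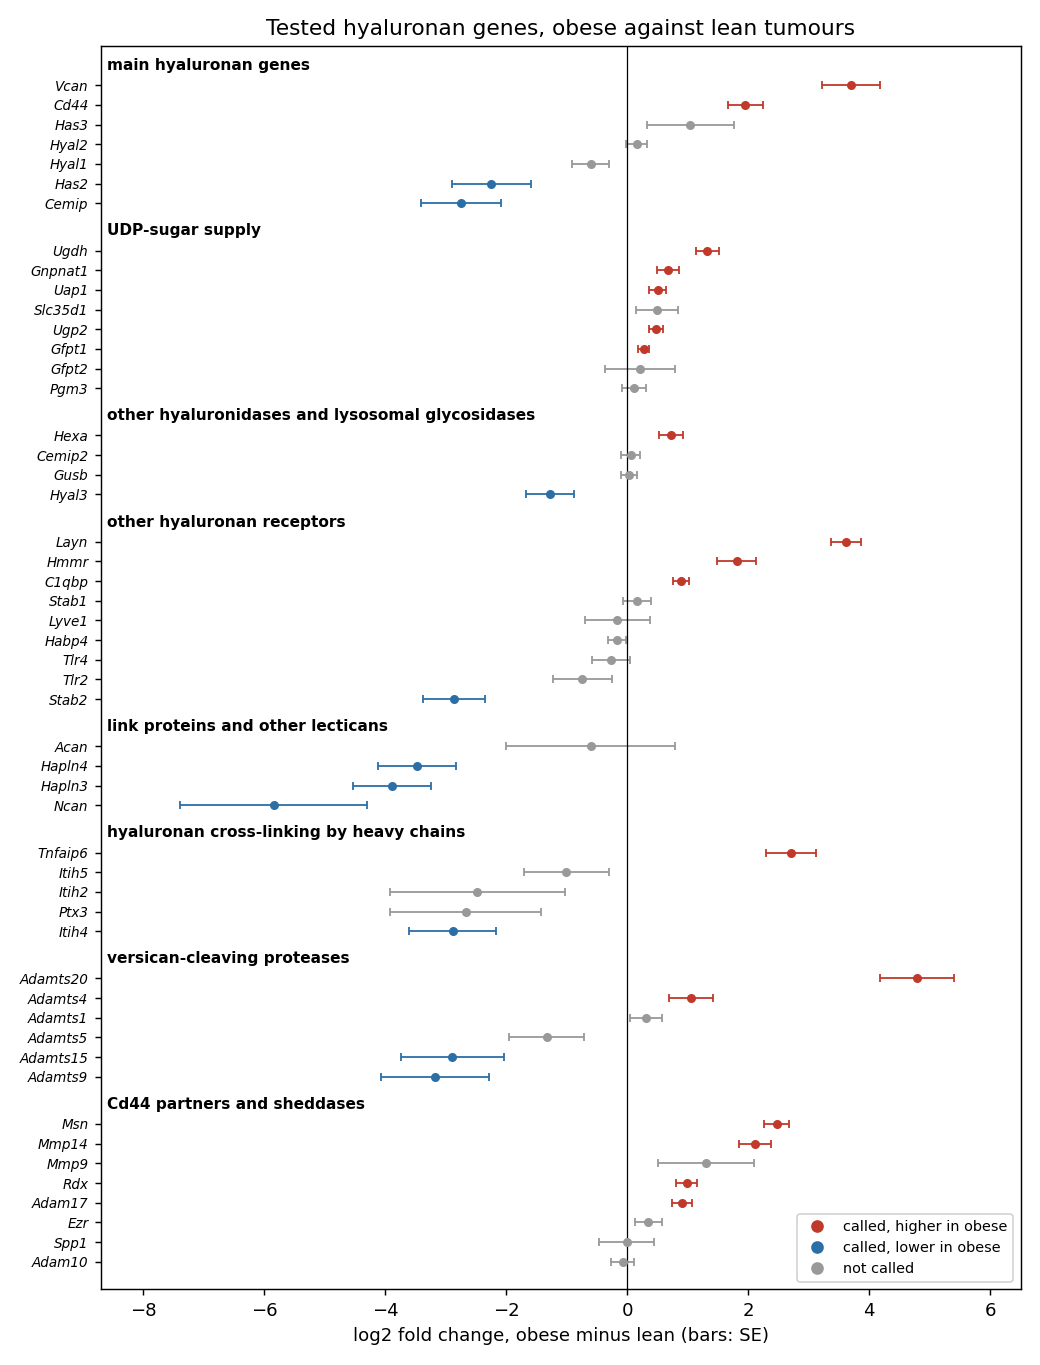
Log2 fold change, obese minus lean (x axis, bars are SE), of the 7 tested main hyaluronan genes and of the tested pathway genes reported here, grouped by role, with called genes in red (higher in obese) or blue (lower) and others in grey. Vcan and Layn lie near 3.7 and 3.6 on the right, and Hapln3, Hapln4 and Ncan, which reached the count filter through the lean tumours, lie left of −3.

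Enzymes that supply the sugar nucleotides were called higher in 5 of 8 tested genes and lower in 0, with a median log2 change of 0.48. That is 62.5% called, near the 59.2% of all tested genes, of which 30.9% were higher. Ugdh, which makes the UDP-glucuronic acid used by the synthases, stood at 143 ± 26.3 CPM in obese and 57.2 ± 11.3 CPM in lean tumours (SD, n = 4 each), a log2 change of 1.32 ± 0.19 (edgeR adjusted p = 0.00118). The changes of Gnpnat1 (0.67 ± 0.18), Uap1 (0.50 ± 0.14), Ugp2 (0.47 ± 0.11) and Gfpt1 (0.27 ± 0.09), which act in the making of UDP-N-acetylglucosamine or UDP-glucose, were smaller. The call of Gfpt1 was lost in 12 of 18 alternatives, among them the omission of any single lean tumour and DESeq2 size factors, and its sign turned in 1 more. With upper quartile scaling or library size only, the count was 1 of 8, and it was 2 of 8 with offsets for GC content and length and 3 of 8 without lean replicate 3. Ugdh stayed called in each of these settings, with a log2 change of at least 0.97.

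Other genes of hyaluronan breakdown had 5 tested members with a median log2 change of 0.03. Hyal3, a further gene of the Hyal1 and Hyal2 cluster whose exons overlap Hyal1, stood at 0.726 ± 0.292 CPM in obese and 1.79 ± 0.267 CPM in lean tumours (−1.28 ± 0.40, edgeR adjusted p = 0.0242, rising to 0.0514 when lean replicate 4 was left out and to 0.0509 under GC and length offsets). Hexa, which encodes a subunit of a lysosomal glycosidase, stood at 198 ± 21.9 CPM in obese and 121 ± 30.1 CPM in lean tumours (0.72 ± 0.20, edgeR adjusted p = 0.0158). Its call ended with upper quartile scaling (edgeR adjusted p = 0.0618). Cemip2, a membrane relative of Cemip, stood at 62.2 ± 13.0 CPM in obese and 59.8 ± 5.32 CPM in lean tumours (0.06 ± 0.16, edgeR adjusted p = 0.767), and its sign turned with the scaling. Hyal5 and Spam1, hyaluronidase genes of sperm, had a count of 0 in all 8 tumours.

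Of 9 tested genes for other hyaluronan receptors and binding proteins, 3 were called higher and 1 lower, with a median of −0.16. The called share was 44.4%, beside 59.2% of all tested genes, 30.9% higher and 28.4% lower. Layn encodes layilin, a membrane receptor of hyaluronan. It stood at 54.8, 40.2, 40.4 and 46.8 CPM in obese replicates 1 to 4, against 4.08, 4.73, 3.65 and 2.40 CPM in lean replicates 1 to 4. All 4 obese tumours, replicate 3 included, lay close together, and the log2 change was 3.62 ± 0.25 (edgeR adjusted p = 0.000159). Hmmr, a hyaluronan-binding protein of the mitotic spindle, stood at 133 ± 29.0 CPM in obese and 38.0 ± 18.1 CPM in lean tumours (1.81 ± 0.33, edgeR adjusted p = 0.00293). C1qbp, a mostly mitochondrial protein that binds hyaluronan, was also higher (0.89 ± 0.13). Stab2, a scavenger receptor of sinusoidal endothelium, stood at 0.0847 ± 0.0586 CPM in obese and 0.616 ± 0.134 CPM in lean tumours and was lower (−2.86 ± 0.51, and −3.45 without obese replicate 4). It reached the count filter in 0 obese tumours. Lyve1, the receptor of lymphatic endothelium, stood at 5.40 ± 2.05 CPM in obese and 6.05 ± 3.47 CPM in lean tumours and was not called (−0.16 ± 0.53, edgeR adjusted p = 0.801).

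Link proteins fasten lecticans, the proteoglycan family of versican, to hyaluronan. Of the 7 link protein and other lectican genes, 4 could be tested. They reached the count filter in all 4 lean tumours and in at most 1 obese tumour, so the filter itself favoured genes low in obese tumours, and no count or median is given for this group. Ncan, the lectican neurocan, stood at 0, 0, 0.271 and 0.0240 CPM in obese replicates 1 to 4, against 0.663, 14.3, 2.01 and 1.81 CPM in lean replicates 1 to 4 (−5.84 ± 1.55, edgeR adjusted p = 0.0135, with −4.19 without lean replicate 2 and −8.77 without obese replicate 3). The link protein genes Hapln3 (0.0371 ± 0.0415 CPM in obese, 0.616 ± 0.133 CPM in lean tumours, −3.90 ± 0.65) and Hapln4 (0.107 ± 0.0852 CPM in obese, 1.27 ± 0.570 CPM in lean tumours, −3.48 ± 0.65) were near the limit of detection in obese tumours. Leaving out 1 tumour moved Hapln3 to −4.71 (without obese replicate 4) and Hapln4 to −4.14 (without obese replicate 3). With a filter of 1 CPM in 4 tumours none of the 7 could be tested.

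Tnfaip6 encodes the secreted enzyme that moves heavy chains of inter-alpha-inhibitor onto hyaluronan. It stood at 23.4, 18.2, 7.56 and 8.37 CPM in obese replicates 1 to 4, against 2.33, 2.17, 2.40 and 1.95 CPM in lean replicates 1 to 4. The lean tumours lay close together and every obese tumour lay above them, with a log2 change of 2.70 ± 0.41 (edgeR adjusted p = 0.00153). Among the 5 tested genes of this group it was the 1 called higher, and Itih4, a heavy chain gene, was the 1 called lower (0.0403 ± 0.0425 CPM in obese, 0.339 ± 0.153 CPM in lean tumours, −2.89 ± 0.72, and −3.70 without obese replicate 3). Itih4 reached the count filter in 0 obese tumours. The group's called share was 40%, beside 59.2% of all tested genes. The heavy chain gene Itih2 stood at 0.124, 0.0494, 9.26 and 0.288 CPM in obese replicates 1 to 4, against 12.2, 18.5, 13.3 and 10.7 CPM in lean replicates 1 to 4. Ptx3, a pentraxin that binds the heavy chains, stood at 3.55, 0.791, 47.4 and 2.02 CPM in obese replicates 1 to 4, against 87.0, 29.7, 97.5 and 129 CPM in lean replicates 1 to 4. For both, obese replicate 3 stood near the lean tumours and the gene was not called (−2.48 ± 1.45, edgeR adjusted p = 0.165 for Itih2 and −2.67 ± 1.25, edgeR adjusted p = 0.0949 for Ptx3). Without that tumour, and also with limma-voom and the DESeq2 Wald test on all 8, both were called lower (without it −6.46, edgeR adjusted p = 0.00012 for Itih2 and −5.37, edgeR adjusted p = 0.00052 for Ptx3), and over all alternatives the adjusted p ran from 6.42e-05 to 0.273 and from 0.000107 to 0.176.

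Of 6 tested ADAMTS proteases that cut versican, 2 were called higher and 2 lower. Their called share was 66.7%, beside 59.2% of all tested genes, 30.9% higher and 28.4% lower. Adamts20 stood at 3.86 ± 0.710 CPM in obese and 0.140 ± 0.113 CPM in lean tumours (4.79 ± 0.61, edgeR adjusted p = 0.000705), and at 5.41 without lean replicate 1. It reached the count filter in 1 lean tumour. Adamts4 stood at 24.4 ± 12.2 CPM in obese and 11.7 ± 3.23 CPM in lean tumours (1.06 ± 0.36, edgeR adjusted p = 0.0338), and its call ended under upper quartile or library size scaling, when genes had to reach 1 CPM in 4 tumours, and when any of obese replicates 1 and 2 or lean replicates 1 and 4 was left out. Adamts15 stood at 4.09 ± 5.41 CPM in obese and 30.5 ± 4.92 CPM in lean tumours (−2.89 ± 0.86, edgeR adjusted p = 0.0209), and at −4.42 without obese replicate 3. Its call ended when obese replicate 4 was left out (edgeR adjusted p = 0.0576). Adamts9 stood at 3.82 ± 0.814 CPM in obese and 34.8 ± 40.5 CPM in lean tumours (−3.18 ± 0.89, edgeR adjusted p = 0.0172), and at −1.99 without lean replicate 2, which held 93.4 CPM. The groups overlapped, with lean replicate 1 at 3.68 CPM, inside the obese range of 2.71 to 4.44 CPM. The call of Adamts9 ended with limma-voom (adjusted p = 0.0954, and 0.0675 with quality weights).

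Genes for Cd44 partners, among them its cytoskeletal anchors, and for sheddases that cut it from the surface were called higher in 4 of 8 cases and lower in 0, with a median of 0.94. That is 50% called, beside 59.2% of all tested genes, of which 30.9% were higher. Msn, moesin, stood at 1796, 1668, 1208 and 1557 CPM in obese replicates 1 to 4, against 349, 327, 229.8 and 219.5 CPM in lean replicates 1 to 4. The groups lay far apart and obese replicate 3 was again the lowest obese tumour, with a log2 change of 2.47 ± 0.21 (edgeR adjusted p = 0.000212). Rdx, radixin, was higher by 0.98 ± 0.17. The sheddases Mmp14 (2.11 ± 0.26) and Adam17 (0.90 ± 0.16) were higher too. Ezr (0.35 ± 0.22), Adam10 (−0.08 ± 0.19), Mmp9 (1.30 ± 0.80) and Spp1 (−0.01 ± 0.46) were not called.

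Cell type markers were looked at as well, and their part in these results was not tested. Their called shares stand beside 59.2% of all tested genes, 30.9% higher and 28.4% lower. These were 50% for mammary epithelium, 75% for fibroblasts, 62.5% for macrophages, 40% for endothelium and 0% for adipocytes. All tested T cell and lymphatic markers were called. Mammary epithelial markers summed to 62.6 to 699 CPM in obese and 1799 to 2782 CPM in lean tumours, with 3 of 6 called lower and 0 higher, and Krt5 and Krt14 were at 0 in obese replicate 1. For all 6 the groups did not overlap, beside 57.0% of all tested genes. The 3 not called, Epcam, Cdh1 and Krt18, stood at 175, 165 and 128 CPM in obese replicate 3. They were at most 5.66 CPM in the other obese tumours and at least 224 CPM in lean tumours. The epithelial sum was highest, among obese tumours, in replicate 3, where Vcan and Cd44 were lowest and Cemip highest. The lean tumours did not repeat this order. Among them the sum was highest in replicate 1 (2782 CPM), where Cemip was lowest (5.87 CPM). Vcan (8.15 CPM) and Cd44 (174 CPM) were higher there than in lean replicates 3 and 4. Markers of fibroblasts, which are known to make hyaluronan and versican, summed to 449 to 1555 CPM in obese and 815 to 1069 CPM in lean tumours, with 2 of 8 called higher and 4 lower. Markers of macrophages, which carry Cd44, summed to 1343 to 1551 CPM in obese and 816 to 2337 CPM in lean tumours, with 4 of 8 called higher and 1 lower. T cell markers summed to 16.2 to 50.9 CPM in obese and 65.5 to 165 CPM in lean tumours, with 5 of 5 tested lower. Trac was at 0 in all tumours, while the T cell gene Cd3g had 13.5 to 37.7 CPM in lean tumours. All 37 mitochondrial genes in the file also had a total count of 0. Whether genes at 0 in every tumour could be counted at all was not tested. Lymphatic markers summed to 11.6 to 19.9 CPM in obese and 29.3 to 243 CPM in lean tumours, highest in lean replicate 2, with 2 of 2 tested lower and Ccl21a at 0 in all tumours. Pdpn made up most of this sum in every tumour (228 CPM in lean replicate 2). Prox1 had too few counts to be tested. Endothelial markers summed to 118 to 173 CPM in obese and 129 to 291 CPM in lean tumours, with 2 of 5 lower and 0 higher. Adipocyte markers summed to 3.54 to 118 CPM in obese and 20.9 to 110 CPM in lean tumours, with 0 of 4 called in either direction.

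The genes most like each main gene were taken from the 3 with the highest Pearson r of log2 CPM after subtraction of the group means, over the 8 tumours. Tested genes were ranked, leaving out symbols of predicted models, pseudogenes, related sequences and clones. For Cd44 they were Qrich1 (0.99) and Dnajb4 (0.98), and for Vcan Ipmk (0.99), Wdr5 (0.99) and Tsku (0.97). For Cemip they were Ptpdc1 (0.99), Aldh3a2 (0.98) and Tnfrsf11a (0.98), and for Has2 Nxn (0.99), Hras (0.98) and Msantd3 (0.98). For Has3 they were Pole, Itsn1 and Ktn1 (each 0.99), for Hyal1 Nos3 (0.99), Gpatch2l (0.98) and Notch1 (0.97), and for Hyal2 Gpsm1 (0.96), Entpd4 (0.95) and Zfp219 (0.94). These values are the extremes of that ranking and are given as a description. They leave out the difference between the groups. Without the subtraction, r for Has2 was 0.017 with Nxn, −0.14 with Msantd3 and 0.99 with Hras, and it ran from −0.14 to 0.998 over the pairs named here.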

How the data were processed

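The deposited values are raw counts that the authors made per Ensembl gene, without normalization, in a column for each tumour (0 columns unused). The submitters' processing notes name STAR 2.5.2b, HTSeq, cutadapt 1.12, CASAVA 1.8 and bcl2fastq 2.18.0.12, and the mm10 build. Annotation, strandedness of the counting and read filters are not given in the sources used here. Reads in exons shared by 2 genes may be dropped or split by such counting, which touches Hyal1 and Hyal3. If the counting ignored strand, it also touches Has3, through Chtf8, and Has2, through Has2os. No 2 libraries were duplicates (chi-square per degree of freedom at least 63.7 between any pair).

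Symbols, coordinates (counted from 1) and exon lengths came from GENCODE M21 (GRCm38). Genes were filtered with filterByExpr (minimum count 10, minimum total 15), scaled by TMM and fitted with edgeR's robust quasi-likelihood F test over all 8 tumours, two-sided, adjusted by Benjamini-Hochberg over 14887 genes. The SE was obtained by dividing the absolute log2 change by the root of F. CPM per kb divides CPM by the exon length. Log2 CPM uses a prior count of 2. A count of 0 allows up to 3 counts, 0.0494 to 0.124 TMM-scaled CPM here.

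The 8 genes and the lists were chosen with earlier results of these data known. The rule for named genes took the 8 genes, the called genes of each list and the 3 genes most like each tested one. Cemip2, Lyve1, Itih2, Ptx3, Ezr, Adam10, Mmp9 and Spp1 were named after their values were seen. So were the marker genes at 0, Pdpn, Prox1, Cd3g, Epcam, Cdh1 and Krt18. Alternatives were DESeq2 size factors, upper quartile factors, library size only, no filter, a filter of 1 CPM in 4 tumours, the DESeq2 Wald test, limma-voom with or without quality weights and leaving out each tumour. Offsets for GC content and length (99.1% of tested genes) and the joint omission of obese replicate 3 and lean replicate 2 were chosen after seeing the data. Some items that the rule took are not reported here. Of these steps, only the edgeR fit was tried on simulated counts. Few genes were changed in them, so that trial cannot give the error rate in so broad a contrast. Tools were edgeR 4.0.16, DESeq2 1.42.0 and limma 3.58.1 under R 4.3.3.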

Additional observations from a re-analysis of the deposited data

Results flagged for a closer look

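In groups of 4 tumours, a tumour was picked out where its gap to the nearest other exceeded 0.829 of the group's range. Chance does so in about 1 in 20 groups, and 74 groups were looked at, for 37 genes. Among the 8 hyaluronan genes this held once, for Has3 in lean replicate 2, at 1.15 CPM beside 0.172 to 0.254 CPM in the other lean tumours.

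Among the pathway genes, obese replicate 3 was picked out as the highest of its group for Ptx3 (47.4 CPM, others 0.791 to 3.55), Itih2 (9.26 CPM, others 0.0494 to 0.288), Adamts15 (12.1 CPM, others 0.907 to 2.33) and Ncan (0.271 CPM, others 0 to 0.0240). Lean replicate 2 was the highest lean tumour for Ncan (14.3 CPM, others 0.663 to 2.01). Lean replicate 1 was the lowest lean tumour for Hapln3 (0.417 CPM, others 0.671 to 0.693) and Hapln4 (0.417 CPM, others 1.48 to 1.63). Obese replicate 1 was the lowest obese tumour for Hyal3 (0.289 CPM, others 0.841 to 0.909).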

How the results depend on the processing

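Vcan, Cd44 and Cemip kept their direction and their call under all 18 alternatives, with log2 changes of 3.33 to 4.22, 1.68 to 2.30 and −3.38 to −2.35. Has2 kept its direction under all 18 and lost its call with obese replicate 3 and lean replicate 2 both left out (−1.56, edgeR adjusted p = 0.0532) and without obese replicate 4. Leaving out 1 tumour at a time gave Has2 −2.71 to −1.59, Has3 0.77 to 2.10, Hyal1 −0.87 to −0.43 and Hyal2 0.0056 to 0.25. Has3 became called with voom quality weights (2.19) and with both tumours left out (2.37), and Hyal1 with voom quality weights (−0.59) and upper quartile factors (−0.82). Hyal2 changed sign, to −0.055 with upper quartile factors, −0.032 when scaled by library size and −0.046 with voom quality weights. The cause was not tested in any of these cases.

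The number of the 8 genes called lower was 1 with both tumours left out, and 1 to 3 when 1 tumour was left out. Over the pathway list, 10 genes were called higher with upper quartile factors, 4 lower with 1 CPM in 4 tumours, where fewer genes are tested, and 14 lower with both tumours left out. Leaving out 1 tumour gave 7 to 14 lower. Has3 had no value with 1 CPM in 4 tumours, and Has1 had one only with no filter. Of 29 pathway genes followed, 15 kept direction and side of the threshold in every alternative that gave a value. Gfpt1 turned to −0.031 with GC and length offsets. Cemip2 turned to −0.15 by upper quartile scaling, −0.13 by library size, −0.034 with 1 CPM in 4 tumours and −0.018 with those offsets, and spanned −0.086 to 0.14 with 1 tumour left out. Lyve1 turned to 0.077 with limma-voom, 0.43 with quality weights and 0.18 with both tumours left out, and spanned −0.48 to 0.21 with 1 left out. Without division by length the mean share of Has2 in lean tumours was 86.8%, that of Hyal2 in lean tumours 62.1%, and that of Cemip 3.55% in obese and 18.2% in lean tumours. No paired analysis was possible because the labels give the tumours no shared replicate numbers.

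Depth limits Has1, Has2, Has3, Ncan, Hapln3, Hapln4, Itih4 and Stab2, which rest on few counts per obese tumour.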
